A study of Mus musculus with 6 samples.

Results

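The genes described here are 35 genes of the T lineage, listed by name and read on arrays of sorted thymic epithelial cells (TECs). They were chosen to gauge how much thymocyte RNA each array carries. Some, such as *Thy1* and *Ets1*, are also made by other cell types, and whether TECs make any of them was not tested. A member was measured where a probe set carries its symbol and no other, and with several such probe sets the brightest was taken. This gave 31 of the 35 genes, out of 30176 genes measured in all. *Rag1* and *Gata3* lie only on probe sets with several symbols and *Lck* and *Tcf7* were paired with no probe set, so these 4 were not analysed here. The samples are 3 arrays of mice labelled KO, socs3fl/fl act cre ER, called Δ*socs3*, and 3 arrays of mice labelled WT, socs3fl/fl without the Cre. Both groups carry the floxed *Socs3* alleles and both were given tamoxifen (Tm), with TECs taken 7 days after treatment. In Δ*socs3* mice a β-actin promoter drives the Tm-inducible Cre in all tissues, so the deletion is not limited to TECs. Cells were sorted as CD45-negative and EpCAM+, a gate meant to leave out thymocytes, which carry CD45. The ages of the mice are not given in the sources used here.

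T cells develop in the thymus in close contact with TECs, first as CD4-CD8- double negative cells that rearrange the TCR β chain, then as CD4+CD8+ double positive cells that rearrange the α chain, and then as CD4 or CD8 single positive cells. Double positive cells are the most abundant cells of the organ, and cortical TECs can enclose them in complexes called thymic nurse cells. The T cell receptor signals through the CD3 chains and the ζ chain, whose tails are phosphorylated by LCK and bound by ZAP70, and CD4 or CD8 bring LCK to the complex. On these arrays, RNA of thymocytes within the sorted material and RNA of the same genes made by TECs cannot be told apart, nor can more thymocytes and more RNA per thymocyte.

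The promoters of 4 members are shown because their genes share the pattern described here in full or in part. *Cd3e*, *Cd8a* and *Dntt* had the same order of arrays within both groups. *Bcl11b* was likewise lowest on Δ*socs3* 2 and highest of its group on WT 3, but was lower on Δ*socs3* 3 than on Δ*socs3* 1. The windows run from 250 bases before to 50 bases after the start of the gene and are RefSeq sequences of GRCm38.p6, written 5′ to 3′ on the strand of the gene. They lie at chr9:45009562-45009861 on the minus strand (*Cd3e*), chr6:71373177-71373476 on the plus strand (*Cd8a*), chr19:41029025-41029324 on the plus strand (*Dntt*) and chr12:108003365-108003664 on the minus strand (*Bcl11b*). Capitals mark matches on either strand to the letters of 5 motifs of factors that act in T cell development. CAGNTG is bound by E proteins, which drive rearrangement of the receptor genes. TGTGGT is bound by RUNX factors, which act on the coreceptor genes. The third motif searched was CTTTGA, bound by TCF/LEF factors of early thymocytes. GGAAGT holds the core of ETS factors, and AGATAA is bound by GATA factors such as GATA3.
Cd3e: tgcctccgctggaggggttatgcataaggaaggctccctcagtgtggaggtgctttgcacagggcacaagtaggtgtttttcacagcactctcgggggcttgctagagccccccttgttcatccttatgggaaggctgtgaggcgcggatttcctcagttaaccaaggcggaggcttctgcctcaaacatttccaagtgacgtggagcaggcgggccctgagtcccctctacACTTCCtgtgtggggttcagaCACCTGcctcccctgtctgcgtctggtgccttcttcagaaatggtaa
Cd8a: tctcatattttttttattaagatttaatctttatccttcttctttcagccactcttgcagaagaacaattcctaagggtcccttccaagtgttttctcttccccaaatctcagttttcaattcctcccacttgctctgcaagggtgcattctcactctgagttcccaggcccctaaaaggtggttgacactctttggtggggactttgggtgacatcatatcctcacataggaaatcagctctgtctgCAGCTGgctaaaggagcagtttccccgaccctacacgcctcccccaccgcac
Dntt: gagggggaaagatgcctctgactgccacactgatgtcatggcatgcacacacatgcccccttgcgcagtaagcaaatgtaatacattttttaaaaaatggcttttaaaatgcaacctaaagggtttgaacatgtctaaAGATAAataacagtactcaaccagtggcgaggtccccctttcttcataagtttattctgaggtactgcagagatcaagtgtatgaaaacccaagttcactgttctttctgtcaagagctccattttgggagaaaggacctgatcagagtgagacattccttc
Bcl11b: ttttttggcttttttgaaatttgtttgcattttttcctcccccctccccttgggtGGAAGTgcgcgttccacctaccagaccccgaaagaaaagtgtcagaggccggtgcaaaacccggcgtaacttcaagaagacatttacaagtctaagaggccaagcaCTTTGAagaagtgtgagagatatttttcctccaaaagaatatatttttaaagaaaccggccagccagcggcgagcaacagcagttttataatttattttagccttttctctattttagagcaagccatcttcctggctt
The *Cd3e* window holds 1 E protein and 1 ETS match, the *Cd8a* window 1 E protein match, the *Dntt* window 1 GATA match, and the *Bcl11b* window 1 TCF/LEF and 1 ETS match. No match overlaps another in these windows. Of all 32851 promoter windows, 51.4% hold the E protein letters, 16.8% the RUNX, 16% the TCF/LEF, 23.8% the ETS and 11.2% the GATA letters. The tables hold 40 windows of 20 measured members, of which 26 hold the E protein, 5 the RUNX, 10 the TCF/LEF, 13 the ETS and 5 the GATA letters. A match is a stretch of letters and not a site in use.

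*Socs3*, the targeted gene, checks the labels. Its log2 signal was 8.54, 8.14 and 8.38 on the arrays labelled Δ*socs3* and 8.00, 8.26 and 7.88 on the arrays labelled WT. The signal was not lower on the arrays labelled Δ*socs3*, with a log2 difference of 0.32 (adjusted p = 0.284 from limma), and all values lay below 10.22, which 95% of negative controls did not exceed. Differences below are positive where the arrays labelled Δ*socs3* were the higher ones. With the deposited labels they run opposite to the direction printed by the study for genes such as *Aire*, *Cd80*, *Ccr4*, *Ccr7* and *Id3*. *Ctsl*, which the study also lists as higher in WT TECs, runs in the printed direction (-0.95). The arrays are therefore called by their labels throughout, and to which genotype a direction belongs is not settled. *Epcam*, the surface marker of the sort, was at 15.46, 15.28 and 15.51 on the arrays labelled Δ*socs3* and 15.56, 15.54 and 15.57 on the arrays labelled WT. Array Δ*socs3* 2 stood apart. Its positive controls lay 3.2 log2 units above its negative controls, against 3.96 to 4.26 on the other 5 arrays. Of its genes 9.01% exceeded the 95th percentile of its own negative controls, against 13.6% to 16.1% on the others. That percentile was itself higher on Δ*socs3* 2, at 10.75 against 10.15 to 10.48.

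Thymocyte genes gave low signals on all 6 arrays, most of them within the range of the negative controls. For each of the brighter ones, the range over the arrays labelled Δ*socs3* exceeded the difference of the group means. The range over the arrays labelled WT did not for *Bcl11b* (0.19, difference -0.38), *Ets1* (0.18, difference -0.45) and *Ikzf1* (0.28, difference 0.77). A range and a difference of means are unlike measures, and Δ*socs3* 2 was the deviating array. The T cell coreceptors *Cd4*, *Cd8a* and *Cd8b1*, the CD3 chain *Cd3e*, the polymerase gene *Dntt* and the CD45 gene *Ptprc* were highest on array Δ*socs3* 3 and lowest on array Δ*socs3* 2, and among the arrays labelled WT each of them was highest on WT 3 and lowest on WT 2. Of the 31 genes, 0 passed an adjusted p of 0.05 as higher on arrays labelled Δ*socs3* and 1, *Cd28*, passed as lower (limma, Benjamini-Hochberg over 30176 genes). Over all genes 156 (0.517%) passed as higher and 356 (1.18%) as lower. With the values as deposited, with no shift between arrays, the split over all genes was 367 against 355, and after quantile normalization 1146 against 1052. Without adjustment, a p of 0.05 would name 2 members as higher and 1 as lower, and 1768 and 5393 of all 30176 genes.

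The members fall into a brighter and a dimmer part, read against probe sets that serve as negative controls and whose 50th, 75th and 95th percentiles were 6.77, 8.01 and 10.22. Of the 31, 12 had a mean over the 6 arrays above the 75th percentile, from 8.29 to 10.33, and the other 19 had means from 5.46 to 7.88. The 12 are *Cd3e*, *Cd3g*, *Cd4*, *Cd8a*, *Cd8b1*, *Ptprc*, *Lat*, *Dntt*, *Bcl11b*, *Satb1*, *Ets1* and *Ikzf1*. Only *Cd4* and *Cd8b1* exceeded the 95th percentile of an array's own negative controls, both on Δ*socs3* 1 and Δ*socs3* 3 and *Cd8b1* alone on WT 3, and no member did on Δ*socs3* 2, WT 1 or WT 2. A signal depends on the probe as well as on the RNA, so each gene is compared only with itself.

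**Figure D1:**
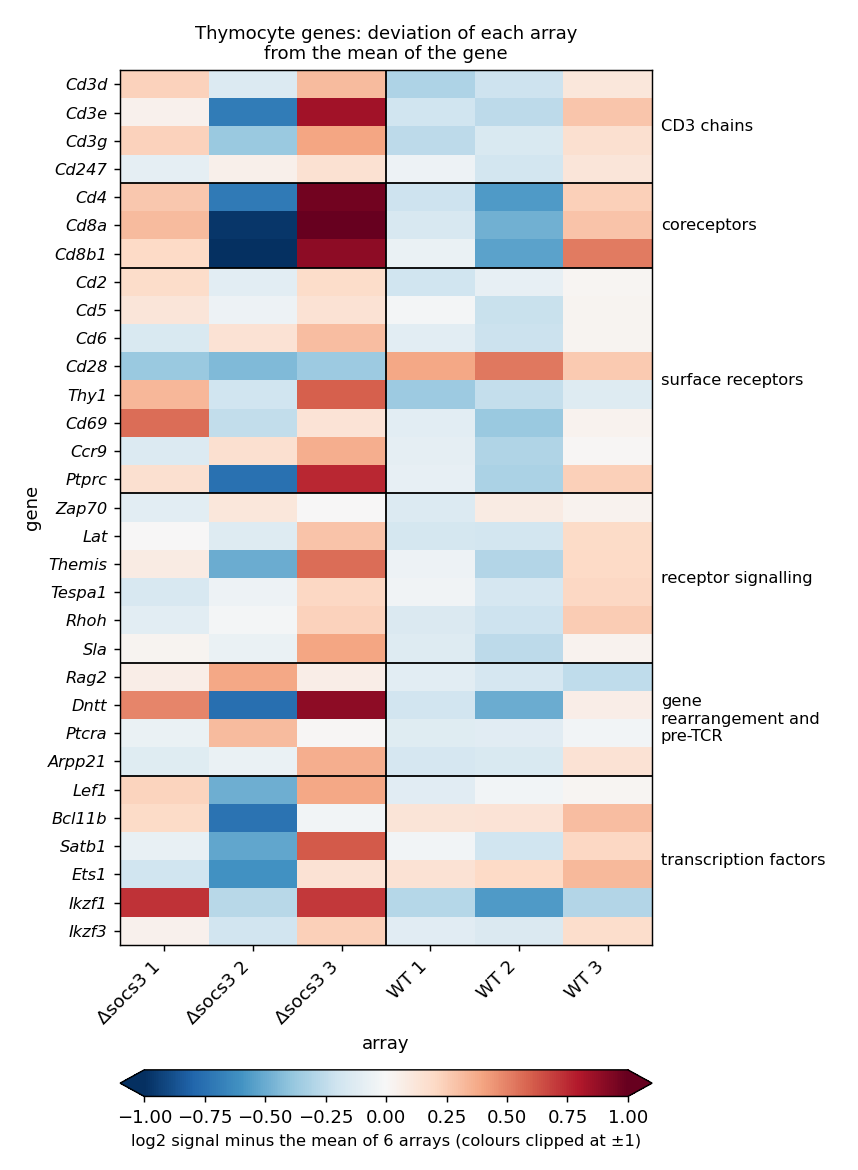
Log2 signal of each of 31 thymocyte genes (rows, grouped by role) on each array (columns, arrays labelled Δsocs3 left and WT right) minus the mean of the gene over 6 arrays, with red above and blue below the mean. The coreceptors, Cd3e, Ptprc and Dntt are red on Δsocs3 3 and blue on Δsocs3 2, with a smaller contrast of the same kind between WT 3 and WT 2.

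*Cd4*, the coreceptor for MHC class II, had log2 signals of 10.51, 9.54 and 11.21 on the arrays labelled Δ*socs3* and of 10.04, 9.68 and 10.48 on those labelled WT. The groups overlapped, since Δ*socs3* 2 lay below every WT array while the other two lay above them. The means were 10.42 ± 0.84 and 10.07 ± 0.41 (SD, n = 3 each), a log2 difference of 0.35 (95% interval -0.63 to 1.33, adjusted p = 0.658). *Cd8a*, the CD8 α chain that binds MHC class I, was at 8.96, 7.67 and 9.65 on the arrays labelled Δ*socs3* and at 8.48, 8.16 and 8.93 on those labelled WT. Here too Δ*socs3* 2 was below every WT array and Δ*socs3* 1 and 3 above them. The difference was 0.24 (interval -0.88 to 1.35, adjusted p = 0.801). *Cd8b1*, the CD8 β chain found on thymus-derived αβ T cells, was at 10.53, 9.32 and 11.22 on the arrays labelled Δ*socs3* and at 10.26, 9.79 and 10.85 on those labelled WT, a difference of 0.06 (interval -1.08 to 1.20, adjusted p = 0.951). WT 3 lay above Δ*socs3* 1 for this gene, so the groups were interleaved.

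The spread within a group was larger than the difference between groups for these coreceptors. In log2 signal, Δ*socs3* 3 exceeded Δ*socs3* 2 by 1.68 for *Cd4*, 1.98 for *Cd8a* and 1.90 for *Cd8b1*, and WT 3 exceeded WT 2 by 0.81, 0.76 and 1.06. The signals on Δ*socs3* 2 lay below 10.75, the 95th percentile of its own negative controls, and *Cd8a* lay below that level of each array, so these steps are differences in measured signal and the folds in RNA are not known. Both genes of the CD8 heterodimer and *Cd4* thus had the same order of arrays within each group. Double positive cells carry both coreceptors, but arrays do not show whether these RNAs lie in the same cell.

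The 4 CD3 chains were all highest on Δ*socs3* 3. *Cd3e*, the ε chain shared by both CD3 dimers of the receptor, was at 8.96, 8.22 and 9.76 on the arrays labelled Δ*socs3* and 8.72, 8.66 and 9.20 on those labelled WT. Its groups overlapped, with a difference of 0.12 (interval -0.75 to 0.98, adjusted p = 0.877), and Δ*socs3* 3 was 1.53 above Δ*socs3* 2. *Cd3g*, the γ chain, was at 8.52, 7.92 and 8.69 on the arrays labelled Δ*socs3* and 8.03, 8.14 and 8.45 on those labelled WT, so that Δ*socs3* 2 was again the lowest array, but WT 1 and not WT 2 was the lowest of its group. *Cd3d*, the δ chain, was dimmer, at 7.08, 6.71 and 7.17 on the arrays labelled Δ*socs3* and 6.54, 6.64 and 6.96 on those labelled WT. *Cd247*, the ζ chain, spanned 0.33 log2 units over the 6 arrays around a level below the median of the negative controls. None of the 4 passed the test, with differences of 0.07 to 0.28 and adjusted p of 0.39 to 0.877.

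**Figure D2:**
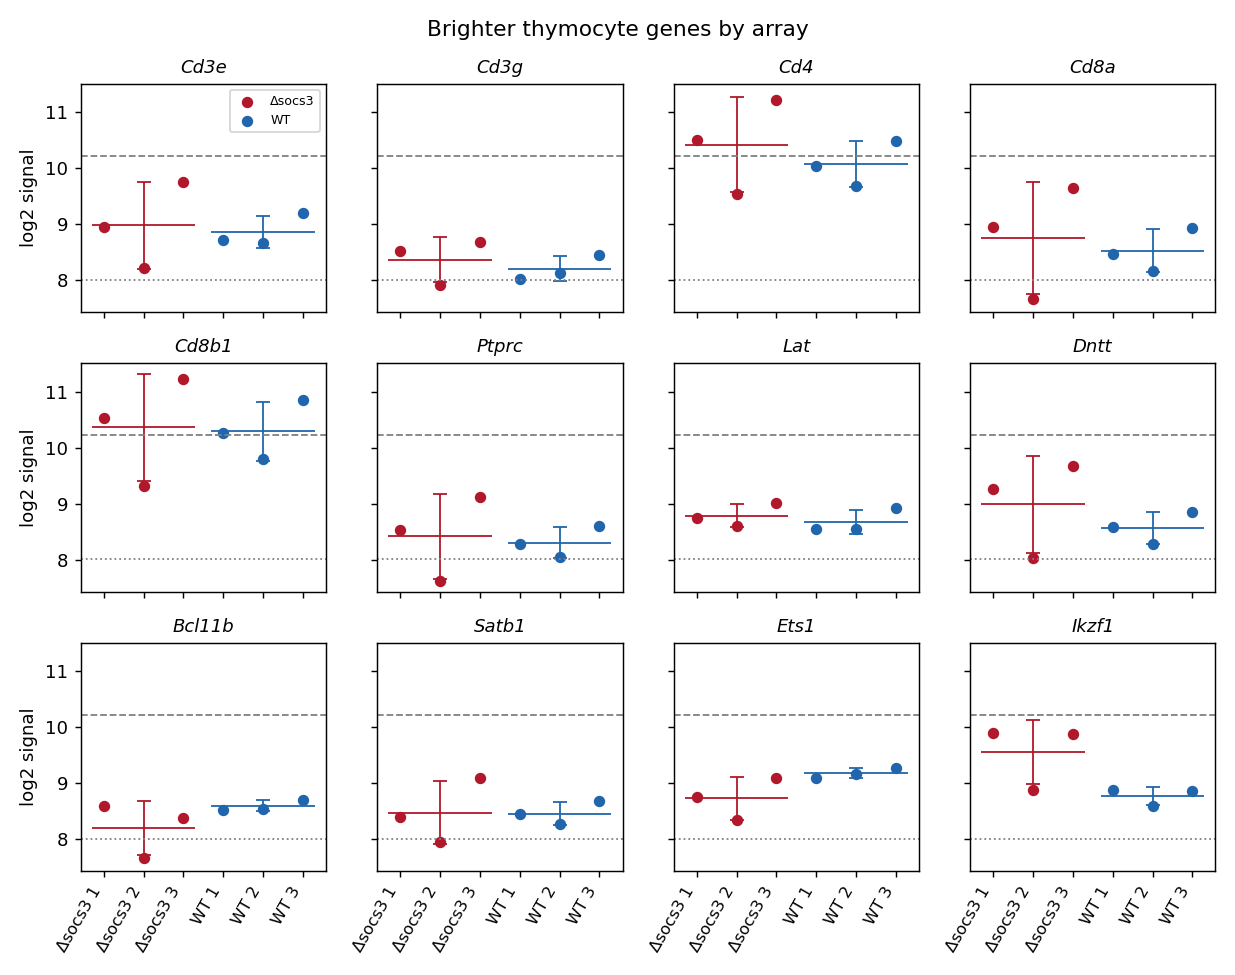
Log2 signal of the 12 brighter thymocyte genes on each array (x axis, arrays labelled Δsocs3 in red left of those labelled WT in blue), with horizontal lines at the group means, bars of 1 SD (n = 3), and the 75th (dotted) and 95th (dashed) percentiles of negative controls at 8.01 and 10.22. Cd4, Cd8a, Cd8b1, Cd3e, Ptprc and Dntt are lowest on Δsocs3 2 and highest on Δsocs3 3, while Ikzf1 lies above the WT arrays on all 3 arrays labelled Δsocs3.

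Among the 8 surface receptors, *Ptprc* encodes CD45, the antigen by which hematopoietic cells were gated out. It was at 8.53, 7.62 and 9.12 on the arrays labelled Δ*socs3* and at 8.29, 8.05 and 8.61 on those labelled WT. These values follow the order of the coreceptors within both groups, and the groups overlapped, with a difference of 0.11 (interval -0.74 to 0.96, adjusted p = 0.885). *Thy1*, a glycolipid-anchored protein of mouse T cells that other cell types also carry, was at 7.95, 7.42 and 8.22 on the arrays labelled Δ*socs3* and at 7.26, 7.38 and 7.49 on those labelled WT. Only Δ*socs3* 2 lay within the range of the WT arrays, and the difference of 0.49 did not pass (interval -0.007 to 0.99, adjusted p = 0.216).

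*Cd28*, the costimulatory receptor for CD80 and CD86, was the single member that passed the test, and it was lower on the arrays labelled Δ*socs3*. It was at 7.25, 7.18 and 7.26 on these arrays and at 8.01, 8.15 and 7.88 on the arrays labelled WT, so the groups did not overlap. The means were 7.23 ± 0.04 and 8.01 ± 0.14 (SD, n = 3 each), a difference of -0.78 (interval -1.08 to -0.48, adjusted p = 0.0401). The adjusted p was 0.0108 without Δ*socs3* 2 and 0.107 to 0.184 without any one of the other arrays, and it was 0.137 with the methods' t-test. The order of replicates seen for *Cd4* and *Cd8a* was absent, with WT 2 the highest array. The levels lay within the spread of the negative controls, whose own median was 6.58, 6.61 and 6.68 on the arrays labelled Δ*socs3* and 6.95, 7.06 and 6.99 on those labelled WT. The part of this shift in the result was not tested.

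The other 5 surface receptors had means of 6.35 to 7.88, and none passed. *Ccr9*, the receptor for the TEC chemokine CCL25, was at 7.74, 8.04 and 8.24 on the arrays labelled Δ*socs3* and 7.79, 7.58 and 7.89 on those labelled WT, and unlike the coreceptors it was not lowered on Δ*socs3* 2. *Cd69*, an early activation marker that also marks thymocytes after positive selection, was at 7.09, 6.29 and 6.67 on the arrays labelled Δ*socs3* and 6.43, 6.16 and 6.57 on those labelled WT. It was highest on Δ*socs3* 1 rather than Δ*socs3* 3. The adhesion receptor *Cd2* and the scavenger-type receptors *Cd5* and *Cd6*, which tune TCR signals, differed by 0.17, 0.14 and 0.19, with adjusted p of 0.507, 0.566 and 0.52.

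Of the 6 measured genes of TCR signaling, the adaptor *Lat* followed the order of the coreceptors with small steps. It was at 8.74, 8.61 and 9.02 on the arrays labelled Δ*socs3* and at 8.56, 8.55 and 8.93 on those labelled WT, and the third array of each group was the high one. *Themis*, a protein that double positive thymocytes need for positive selection, had larger steps, at 7.76, 7.18 and 8.24 on the arrays labelled Δ*socs3* and 7.63, 7.39 and 7.88 on those labelled WT. The log2 signal on Δ*socs3* 3 was 1.06 above that on Δ*socs3* 2 and that on WT 3 was 0.48 above that on WT 2, while the groups differed by 0.10 (interval -0.55 to 0.74, adjusted p = 0.863). *Sla*, an adaptor that dampens TCR levels in thymocytes, was at 6.70, 6.61 and 7.07 on the arrays labelled Δ*socs3* and at 6.55, 6.41 and 6.71 on those labelled WT, in the same order. *Rhoh*, a GTPase without enzyme activity that supports ZAP70 signaling, and *Tespa1*, a protein needed for positive selection, were highest on WT 3 and differed by 0.07 and -0.007. *Zap70*, the kinase bound to the phosphorylated tails, had a mean of 5.46, under the median of the negative controls, and its 6 values spanned 0.25 log2 units.

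*Dntt* encodes terminal transferase, which adds bases at the joints of rearranging receptor genes and is a marker of immature lymphocytes. Its signals were 9.27, 8.03 and 9.68 on the arrays labelled Δ*socs3* and 8.59, 8.29 and 8.85 on those labelled WT. Δ*socs3* 1 and 3 lay above every WT array and Δ*socs3* 2 below every one. The difference was 0.42 (interval -0.53 to 1.37, adjusted p = 0.581). *Rag2*, a subunit of the recombinase, lay above the WT arrays on each array labelled Δ*socs3*, at 5.79, 6.11 and 5.79 against 5.62, 5.55 and 5.47, but it was highest on Δ*socs3* 2 and all 6 values lay below the median of the negative controls. Its difference of 0.35 did not pass (interval 0.02 to 0.67, adjusted p = 0.186). *Ptcra*, the pre-TCR α chain of double negative cells, and *Arpp21*, a gene of immature thymocytes and neurons, had means of 6.57 and 6.99 and differed by 0.18 and 0.11 (adjusted p = 0.493 and 0.746).

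Of the 6 measured transcription factors, 2 had the order of the coreceptors within both groups, *Satb1* and *Ikzf3*. *Satb1*, a chromatin organizer abundant in thymocytes, was at 8.40, 7.96 and 9.09 on the arrays labelled Δ*socs3* and 8.45, 8.28 and 8.68 on those labelled WT (difference 0.02, adjusted p = 0.973). *Bcl11b*, needed for commitment to the T lineage, was at 8.60, 7.67 and 8.38 on the arrays labelled Δ*socs3* and at 8.53, 8.54 and 8.71 on those labelled WT, and was thus lower on Δ*socs3* 3 than on Δ*socs3* 1. *Ets1*, an ETS factor of lymphocytes and also of other cells, was at 8.76, 8.35 and 9.10 on the arrays labelled Δ*socs3* and at 9.10, 9.16 and 9.28 on those labelled WT. *Bcl11b* and *Ets1* had the only differences below -0.1 beside that of *Cd28*, -0.38 (adjusted p = 0.379) and -0.45 (adjusted p = 0.227), close to -0.38, the median over the 5525 genes of like mean.

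*Ikzf1*, which encodes Ikaros, a zinc finger factor of all lymphoid lineages, had the largest positive difference of the 31. It was at 9.89, 8.89 and 9.87 on the arrays labelled Δ*socs3* and at 8.88, 8.60 and 8.87 on those labelled WT. The groups did not overlap, but Δ*socs3* 2 lay just above WT 1. The mean signals were 9.55 ± 0.57 and 8.78 ± 0.16 (SD, n = 3 each), a log2 difference of 0.77 that did not pass (interval 0.12 to 1.42, adjusted p = 0.159). Unlike the coreceptors it was as high on Δ*socs3* 1 as on Δ*socs3* 3. Its relative *Ikzf3*, or Aiolos, was dim, with a mean of 6.49 and a difference of 0.06, and *Lef1*, a Wnt-responsive factor of thymocytes, was at 7.42, 6.71 and 7.58 on the arrays labelled Δ*socs3* and 7.08, 7.17 and 7.22 on those labelled WT.

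Across the 31 genes the median difference was 0.12, against -0.05 over all genes, and 27 of the 31 had a positive difference, against 13123 of 30176 genes. For the 12 brighter members the median was 0.11 and 10 were positive. For the 5525 genes of like mean it was -0.38 and 1041 were positive. The 19 dimmer members (median 0.14, 17 positive) were not set against genes of like mean. The median of the negative controls was 6.58 to 6.68 on the arrays labelled Δ*socs3* and 6.95 to 7.06 on those labelled WT. The part of that shift in these values was not tested. All arrays labelled Δ*socs3* lay above all arrays labelled WT for 2 members (*Rag2* and *Ikzf1*) and below them for 1 (*Cd28*), while this held for 8.14% and 26.4% of all genes. A single array moved these values. Without Δ*socs3* 3 the median difference of the 31 was -0.007, and without Δ*socs3* 2 it was 0.27. Without Δ*socs3* 2, limma called *Ikzf1* (difference 1.10, adjusted p = 0.0048), *Thy1* (0.71, adjusted p = 0.0185) and *Dntt* (0.90, adjusted p = 0.0342) as higher and *Cd28* (-0.76) as lower, 3 and 1 of 31, at a background of 5.15% and 6.05% of all genes. *Cd4* and *Cd8a* still did not pass then, at 0.79 and 0.78 (adjusted p = 0.123 and 0.117).

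**Figure D3:**
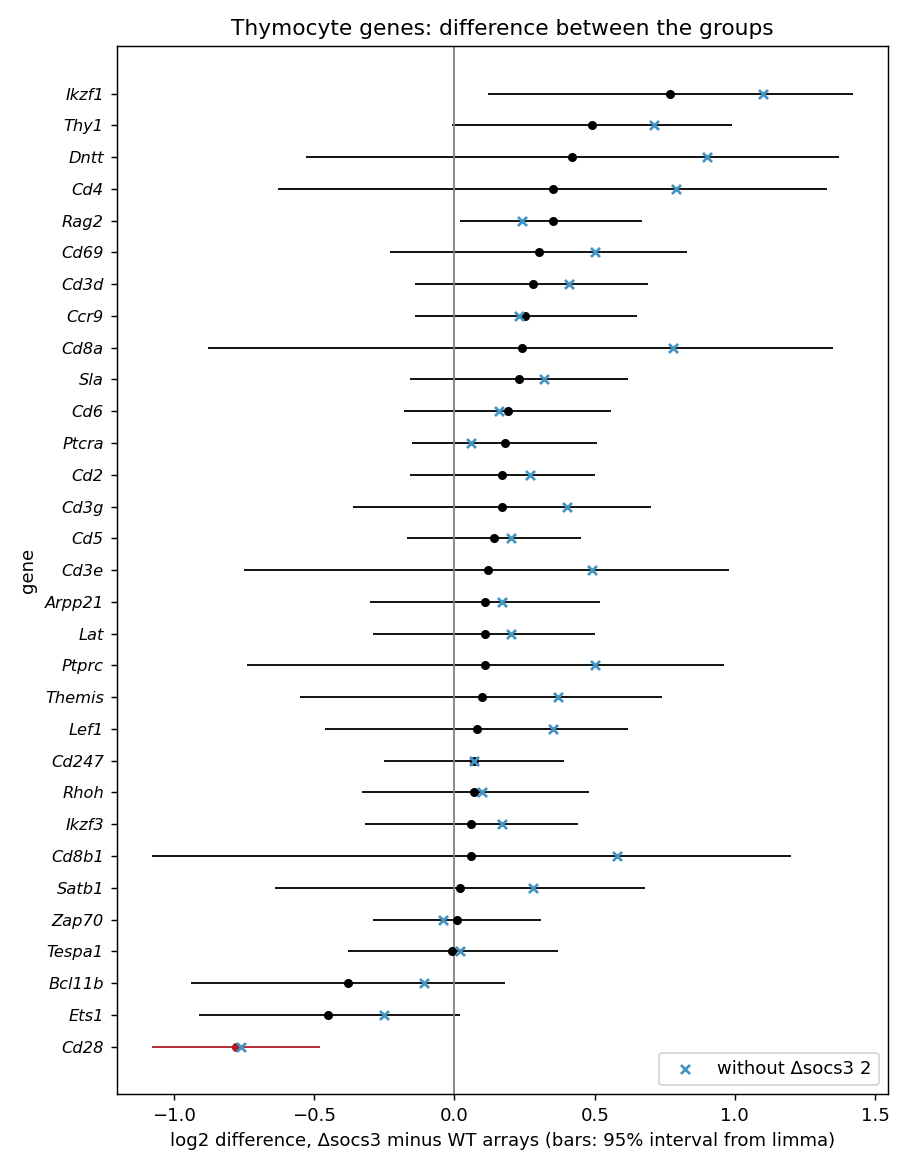
Log2 difference between arrays labelled Δsocs3 and arrays labelled WT for each of 31 thymocyte genes (points, with 95% intervals from limma, n = 3 each; red marks the gene that passed the adjusted p) and the difference without Δsocs3 2 (crosses). Most points lie between 0 and 0.5 with intervals that include 0, and the intervals of Cd8b1, Cd8a and Cd4 are the widest.

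The order of arrays within the groups set these genes beside the rest of the table. It was chosen after the values were seen and is given as a description without a test. Replicate numbers were not taken to pair arrays across the groups, so the order is read within each group and a shared number carries no meaning. The order Δ*socs3* 3 over 1 over 2 together with WT 3 over 1 over 2 held for 12 of the 31 members, and for 1.88% of all genes. It was not particular to these genes, since it also held for 5 of 23 general leukocyte genes and 5 of 23 other genes of the TCR pathway, 21.7% in either list, close to 21.1% of the 19 dimmer members. Among the 12 brighter members it held for 66.7%, against 2.43% of the 5525 genes of like mean. The 12 are *Cd3e*, *Cd4*, *Cd8a*, *Cd8b1*, *Cd5*, *Ptprc*, *Lat*, *Themis*, *Sla*, *Dntt*, *Satb1* and *Ikzf3*, 8 of them brighter members. Δ*socs3* 3 was the highest array for 20 of 31 members and for 8.52% of all genes, and WT 3 exceeded WT 2 for 28 of 31 and for 39.9% of all genes. With the values as deposited these counts were 13, 22 and 30, beside 2.57%, 10.2% and 57.5% of all genes, and after quantile normalization 12, 19 and 28, beside 2.78%, 11.8% and 47.2%.

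Differences between replicates were also read without the deviating array. These pairs of arrays were taken after the order was seen in the same members. The counts below therefore restate that order on a log2 scale and are no separate evidence for it. WT 3 minus WT 2 had a median of 0.47 over the 12 brighter members and of -0.17 over the 5525 genes of like mean, and 10 of the 12 exceeded the 90th percentile of those genes, 0.25. Δ*socs3* 3 minus Δ*socs3* 1 had a median of 0.50 over the brighter members and of -0.04 over genes of like mean, and 9 of the 12 exceeded the 90th percentile, 0.20. *Bcl11b* and *Ets1* for the arrays labelled WT and *Bcl11b*, *Ikzf1* and *Cd3g* for the arrays labelled Δ*socs3* lay below it. Genes of like mean were also lower on Δ*socs3* 2. Their median deviation from the mean of the gene was -0.60 there, against -0.70 for the brighter members, and Δ*socs3* 3 minus Δ*socs3* 2 had a median of 0.61 over them and of 1.31 over the brighter members.

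**Figure D4:**
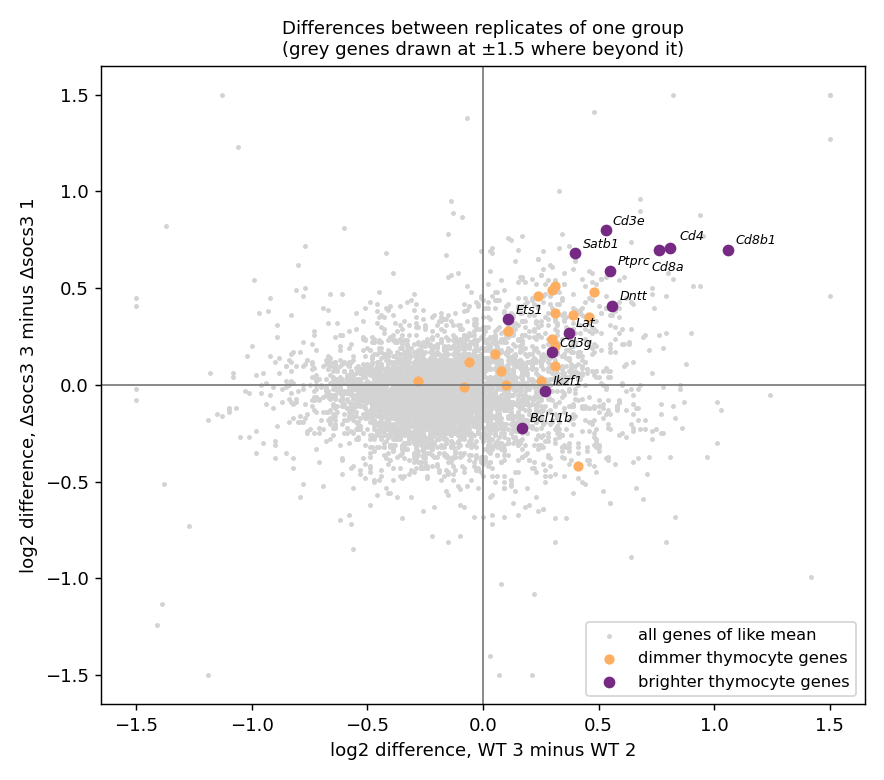
Differences between replicate arrays for all genes of like mean (grey, n = 5525), the 19 dimmer (orange) and the 12 brighter (purple) thymocyte genes, with WT 3 minus WT 2 on the x axis and Δsocs3 3 minus Δsocs3 1 on the y axis, in log2 units. Cd4, Cd8a, Cd8b1, Cd3e, Ptprc, Satb1 and Dntt lie up and to the right of the grey cloud, with Bcl11b and Ikzf1 closer to it.

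As a median over the 12 brighter members, the deviation from the mean of each gene was 0.19, -0.70 and 0.72 on the arrays labelled Δ*socs3* and -0.16, -0.28 and 0.24 on those labelled WT. Over the 19 dimmer members it was 0.02, -0.06 and 0.24 on the arrays labelled Δ*socs3* and -0.12, -0.18 and 0.03 on those labelled WT, the same order within each group on a smaller scale. The 23 general leukocyte genes had the same order within both groups, on the scale of the dimmer members, with medians of 0.15, -0.07 and 0.19 on the arrays labelled Δ*socs3* and -0.12, -0.25 and 0.05 on those labelled WT, with 1 called as higher, *Cd52* (difference 1.13, adjusted p = 0.0478). The 20 dendritic cell and macrophage genes did not have this order, with medians of 0.13, 0.35 and 0.12 on the arrays labelled Δ*socs3* and of -0.19, -0.19 and -0.14 on those labelled WT. Of them 3 were called as higher, *Lyz2* (1.83), *Mrc1* (1.26) and *C1qb* (0.69). Of their defining markers, *Itgax* and *C1qa* had signals of 5.75 to 6.28 on all 6 arrays, below the median of the negative controls. *Csf1r* was likewise dim, at 6.14 to 6.57. *Cd68* was brighter, at 9.48, 8.79 and 9.51 on the arrays labelled Δ*socs3* and 9.63, 9.41 and 9.62 on those labelled WT. Its difference was -0.30 (adjusted p = 0.444 from limma), while 19 of the 20 genes had a positive one. Of 12 B cell genes, *Cr2* was called as higher (difference 1.28), and of 4 erythroid genes none. The part of these cell types in the thymocyte values was not tested.

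**Figure D5:**
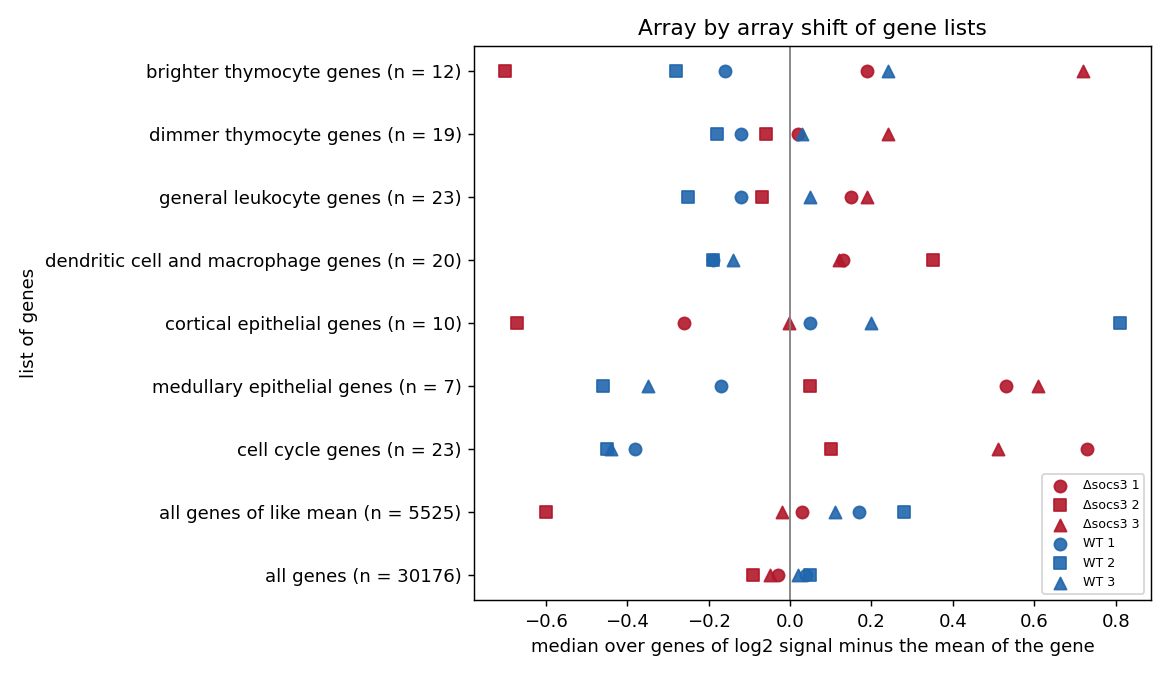
Median over the genes of a list (y axis, number of genes in brackets) of the log2 signal minus the mean of the gene, for each array (red for arrays labelled Δsocs3, blue for those labelled WT; circles, squares and triangles for replicates 1, 2 and 3). The brighter thymocyte genes spread from -0.70 on Δsocs3 2 to 0.72 on Δsocs3 3 with the WT arrays between, whereas cell cycle genes are split by label.

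Calls in the other lists are read against 0.517% of all genes called as higher and 1.18% called as lower. Over all 30176 genes, 1768 were higher and 5393 lower at an unadjusted p of 0.05. Of 23 further genes of the TCR pathway, 0 passed in either direction by limma, and the median difference was -0.07. The medians of their deviations were 0.06, -0.36 and 0.12 on the arrays labelled Δ*socs3* and -0.002, -0.03 and 0.08 on those labelled WT, in the order of the thymocyte genes. At an unadjusted p of 0.05, 0 were higher and 3 were lower. Of 14 early thymocyte genes, 2 fell on the arrays labelled Δ*socs3*, the Notch target *Hes1* (difference -1.15) and *Bcl11a* (-1.32). Of 9 other genes of the double positive stage, 2 fell, the E protein inhibitor *Id3* (-1.56) and the immediate early gene *Egr1* (-1.04). The median differences of these early and double positive lists were -0.16 and -0.69. Neither list had the order of the thymocyte genes. The medians on the arrays labelled WT were 0.04, 0.28 and 0.05 for the early and 0.26, 0.40 and 0.32 for the double positive genes, highest on WT 2. The order within both groups held for 1 of the 14 and 1 of the 9. *Egr1* was at 15.35 to 15.39 on the arrays labelled Δ*socs3* and 16.27 to 16.70 on those labelled WT. The means of *Egr1* and *Id3* over the 6 arrays, 15.9 and 10.62, lay above 10.33, the highest mean of a thymocyte member. Whether TECs make the genes of the early and double positive lists was not tested, so their values are not read as thymocyte stages. Of 21 genes of mature and regulatory T cells, the chemokine receptors *Ccr4* (1.83) and *Ccr7* (0.96) rose and the immediate early genes *Nr4a1* (-2.88) and *Egr2* (-1.28) fell. *Ccr4* was at 10.18, 9.21 and 10.11 on the arrays labelled Δ*socs3* and 8.35, 7.88 and 7.76 on those labelled WT, with no overlap between the groups. Of 12 genes of γδ, innate-like and NK cells, *Xcl1* (0.69), a chemokine gene that medullary TECs also express, rose. The 106 TCR variable segments had 0 calls by limma (at an unadjusted p of 0.05, 3 were higher and 0 were lower). They were highest on Δ*socs3* 2 in 81 cases, the opposite of the coreceptors. Of all 30176 genes, 9061 were also highest on this array, while 4582 of the 5525 genes of like mean to the brighter members were lowest there. The part of signal level in this contrast was not tested.

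The epithelial lists give the setting in which the thymocyte values stand. Cortical genes had medians of -0.26, -0.67 and -0.003 on the arrays labelled Δ*socs3* and 0.05, 0.81 and 0.20 on those labelled WT. Thus WT 2, lowest of its group for the thymocyte genes, was highest for the cortical ones, and all 10 of the cortical genes were highest there. WT 2 was also the highest array for 7 of 11 general epithelial genes and 9695 of all 30176 genes. The same held for 3075 of the 5525 genes of like mean to the brighter thymocyte members, so this is not particular to cortical genes. Of the 10, the protease gene *Ctsl* fell (-0.95), and of 11 general epithelial genes *Pax1* (-1.59) and *Trp63* (-0.91) fell. *Psmb11*, the proteasome subunit of cortical TECs, was at 14.39, 13.39 and 14.62 on the arrays labelled Δ*socs3* and at 15.19, 16.39 and 15.38 on those labelled WT. Medullary genes had medians of 0.53, 0.05 and 0.61 on the arrays labelled Δ*socs3* and -0.17, -0.46 and -0.35 on those labelled WT, and cell cycle genes 0.73, 0.10 and 0.51 against -0.38, -0.45 and -0.44. Of 7 medullary genes 2 rose, the regulator *Aire* (1.76) and *Cd80* (1.30), a ligand of CD28. Of 23 cell cycle genes 7 rose, *Mki67* (2.32), *Kif11* (1.99), *Top2a* (1.91), *Ccna2* (1.51), *Ube2c* (1.42), *Cdk1* (1.11) and *Aurkb* (0.92), where 0.517% of all genes did. Proliferating thymocytes and proliferating TECs both express these genes, and *Mki67* was at 13.15, 12.23 and 12.85 on the arrays labelled Δ*socs3* and at 10.82, 9.88 and 10.56 on those labelled WT, with Δ*socs3* 3 below Δ*socs3* 1.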

How the data were processed

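The authors labelled RNA of sorted TECs with biotin by *in vitro* transcription, hybridized it to mouse whole-transcriptome arrays, and per their methods scaled signals with MAS5 and normalized them per chip and per gene. The deposited table holds log2 values, from 2.34 to 19.93, for 72688 probe sets. Which of those steps the table includes, and its genome build, are not given in the sources used here. Array medians differed (6.79 to 7.04), so each array was shifted to one median over genes. Of 65956 transcript clusters, 30638 had 1 symbol, 2176 several and 33142 none in an annotation of 2017, and the brightest probe set per symbol gave 30176 genes.

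A linear model of group alone was fitted to every gene (R 4.3.3, limma 3.58.1, lmFit then eBayes with 3.19 prior degrees of freedom), with Benjamini-Hochberg over all genes and a threshold of 0.05. No filter on dim genes was applied. The fit was tested on simulated data. Arrays hold no read depth, and 3 arrays a group limit the precision. The smallest p of an exact permutation test is 0.1. Alternatives were no shift, quantile normalization, a filter on dim genes, averaged or separate probe sets, an intensity trend, array weights, Student's unpaired test as the methods' t-test, a replicate block and leaving out each array. Every listed member was described. In the other lists, genes that passed and some defining markers were named. The members and lists were chosen with earlier results of these data known. The list of TCR constant genes had 0 measured genes and was not used.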

Additional observations from a re-analysis of the deposited data

How the results depend on the processing

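The call of *Cd28* and the count of members called changed with the processing, while the median difference of the members stayed within -0.007 to 0.27. Of the 30176 genes, 512 were called, against 2198 after quantile normalization, 4543 with array weights, 4 with the methods' t-test, 29 with a replicate block, and 0 to 3381 when 1 array was left out (3381 without Δ*socs3* 2, 0 to 4 without any other). For the 31 members, 1 call became 2 after quantile normalization, 4 with array weights, 0 with the methods' t-test, 0 with a replicate block and 0 under the filter on dim genes, which left 2 genes. Leaving out 1 array gave 0 to 4 (4 without Δ*socs3* 2). Over the 188 genes of the other lists, 26 calls became 57 after quantile normalization, 81 with array weights and 0 to 67 without 1 array (67 without Δ*socs3* 2), alternatives chosen after seeing the data, as were the division into brighter and dimmer members and the count of TCR variable segments. The causes were not tested, and fewer arrays enter a fit that leaves 1 out.

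The range over arrays of the median deviation was 0.53 and, for the 2 genes left by the filter, 1.79. Leaving out the shift moved the median over all genes to 0.08, against -0.05 with it, and that of the members to 0.25, against 0.12. The sign turned for *Zap70* (-0.07) and *Ikzf3* (-0.01) after quantile normalization and for *Tespa1* (0.13) with no shift. When 1 array was left out, differences ran from -0.27 to 0.49 for *Cd3e*, -0.002 to 0.15 for *Cd247*, -0.05 to 0.79 for *Cd4*, -0.21 to 0.78 for *Cd8a*, -0.37 to 0.58 for *Cd8b1*, -0.24 to 0.50 for *Ptprc* and -0.06 to 0.07 for *Zap70*. They ran from -0.007 to 0.23 for *Lat*, -0.16 to 0.37 for *Themis*, -0.11 to 0.10 for *Tespa1*, -0.03 to 0.21 for *Rhoh*, -0.04 to 0.21 for *Arpp21*, -0.09 to 0.35 for *Lef1*, -0.28 to 0.28 for *Satb1* and -0.05 to 0.17 for *Ikzf3*. The sign of no other member turned in these runs.

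Same-numbered arrays of the 2 groups had correlations of their deviations of 0.0731, -0.131 and -0.18, so the numbers were not taken to pair the samples. The replicate block moved the count of calls over all genes from 512 to 29 and that of members from 1 to 0 (*Cd28*, adjusted p = 0.131).

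Of the members, 29 had group means under the 95th percentile of negative controls throughout, *Cd28* among them, and folds in RNA cannot be read from such signals.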
